A study of Mus musculus with 6 samples.

Results

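The CDK inhibitors and the retinoblastoma family were read here as 10 genes of mouse LSK cells: 3 CIP/KIP inhibitors (Cdkn1a, Cdkn1b and Cdkn1c), 4 INK4 inhibitors (Cdkn2a, Cdkn2b, Cdkn2c and Cdkn2d) and 3 retinoblastoma genes (Rb1, Rbl1 and Rbl2). They were chosen by name, and each had 1 line among the 22381 lines of the authors' deposited table, where 122 other gene symbols stand on several lines. LSK cells are bone marrow cells sorted as negative for lineage antigens and positive for Sca-1 and c-Kit, a gate that contains blood stem cells and multipotent progenitors. The comparison was of 3 samples labelled Tgif1-/- with 3 samples labelled WT, all from C57BL/6 mice aged 8 to 12 weeks. Tgif1 encodes a homeodomain repressor of TGF-beta and retinoid responses. The sources used here do not say whether the 3 samples of a group were separate animals, so the spread behind the p-values may be technical, and they do not say which part of Tgif1 was removed or whether each sample pooled several mice. The series title concerns stem cell quiescence and self-renewal.

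Entry into the cell cycle is gated by these proteins. INK4 proteins bind Cdk4 and Cdk6 and keep them from D-type cyclins, whereas CIP/KIP proteins bind cyclin and CDK complexes, above all those of Cdk2. When the kinases are held back, the retinoblastoma proteins stay lightly phosphorylated and keep E2F target genes silent. In mouse blood stem cells Cdkn1c and Cdkn1b are known for their part in quiescence, Cdkn2c for restraining self-renewal, and Cdkn2a for being silenced by Polycomb proteins.

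The table holds 1 value per group and gene, in FPKM (fragments scaled by transcript length and by the mapped total), so no value per sample, SD or depth could be read. Tgif1 itself was listed at 88.6 FPKM in the Tgif1-/- samples and 71.5 FPKM in the WT samples, with a failed test. Tgif1 was thus not listed lower in the samples labelled Tgif1-/-. With a failed test, and with the removed part of the gene unknown here, this value cannot check the genotype label. Each direction below is one between groups as labelled. The sort genes were present in both groups: Ly6a (Sca-1) at 120 and 88.9 FPKM, and Kit at 193 and 202 FPKM, in Tgif1-/- and WT cells. Usual lineage antigens were low in Tgif1-/- and WT cells for Cd3e (0.134 and 0.250 FPKM) and Cd8a (0.254 and 0.189 FPKM), while Itgam stood at 35.4 and 34.0 FPKM. A bulk value cannot tell fewer cells of a type from less RNA per cell.

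None of the 8 tested members passed the authors' Cuffdiff test at a q at or under 0.05, a call reached by 0.662% of 10730 tested genes (71 genes). In Tgif1-/- cells 3 tested members stood above the WT value and 5 below it. Their median log2 ratio (Tgif1-/- over WT) was -0.07, against -0.03 over all tested genes. The member nearest to a call was Cdkn1a, at 0.725 times the WT level, and it was also the 1 member with an unadjusted p under 0.05, a level reached by 5.41% of tested genes. Cdkn2a and Cdkn2b had too few reads to be tested.

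Stretches before RefSeq start sites (build GRCm38.p6) are printed for the members on which the following paragraphs dwell, since Tgif1 binds DNA and since E2F and p53 are textbook regulators of these genes. Windows of 250 bases before to 50 after a start were held for 8 members (11 windows), without Rb1 and Cdkn1c. Both strands were searched, and capitals mark the match. TGTCA, the TGIF core, stood in 45.4% of all 32851 windows. TTTCGCGC, TTTGGCGC or TTTCCCGC (E2F) stood in 1.84%, TTTGAA (the CHR element) in 17.9%, CAGAC (SMAD) in 49.6%, and the p53 decamer in 8.36%. Among the 11 member windows the counts were 5 for the TGIF core, 2 for E2F, 2 for the CHR element, 7 for SMAD and 2 for the p53 decamer. A match is a run of letters and not a measured binding site.
Cdkn1a, upstream start, p53 decamer (chr17:29090912-29090953, plus strand): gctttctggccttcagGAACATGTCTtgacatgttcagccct
Cdkn1a, downstream start, TGACA, the TGIF core on the other strand (chr17:29093550-29093586, plus strand): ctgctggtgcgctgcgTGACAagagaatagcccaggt
Cdkn2c, TGACA, the TGIF core on the other strand (chr4:109665472-109665508, minus strand): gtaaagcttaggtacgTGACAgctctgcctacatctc
Cdkn2a, upstream start, E2F (chr4:89294695-89294734, minus strand): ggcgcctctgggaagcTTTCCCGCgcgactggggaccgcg
Rbl1, E2F (chr2:157204535-157204568, minus strand): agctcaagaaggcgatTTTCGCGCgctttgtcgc

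Levels of the 10 genes covered a wide range, and FPKM, being per length, allows them to be set side by side. Rbl2 was highest at 69.5 FPKM in Tgif1-/- cells and 77.5 FPKM in WT cells. It was followed in both groups by Rb1, Cdkn1a, Rbl1, Cdkn2c, Cdkn1b, Cdkn2d and Cdkn1c. This order of 8 genes was the same in both groups. Some neighbours were close: Cdkn1a was 1.11 times Rbl1 in Tgif1-/- cells and 1.44 times in WT cells, and Cdkn2c was 1.20 and 1.19 times Cdkn1b. With no spread per gene, whether close neighbours differ in level was not testable. Cdkn2a and Cdkn2b were last, both under 0.15 FPKM in each group. Among tested genes the level of Rbl2 exceeded 87.8% in Tgif1-/- cells and 88.9% in WT cells, and that of Cdkn1c exceeded 22.4% and 22.2%.

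**Figure D1:**
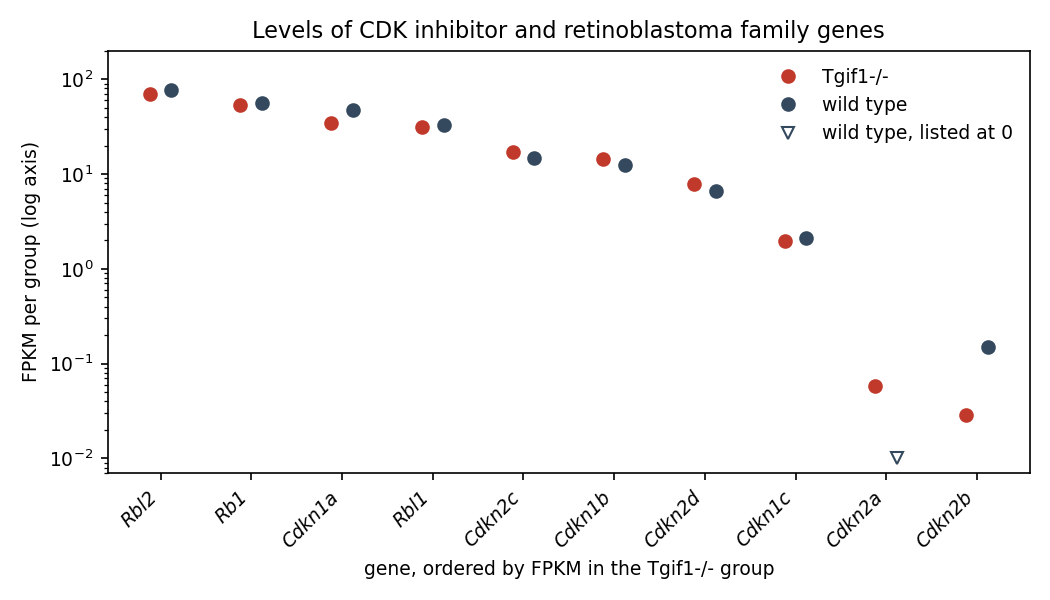
FPKM (log axis) of each of the 10 genes in the Tgif1-/- group and the WT group, with 1 point per group and no error, since the table gives none. Rbl2, Rb1, Cdkn1a and Rbl1 lie above 30 FPKM in both groups, and Cdkn2a, listed at 0 in WT cells (open triangle), and Cdkn2b lie far below the rest.

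Cdkn1a, which encodes p21, the CIP/KIP inhibitor that p53 induces, had 34.3 FPKM in Tgif1-/- cells, against 47.3 FPKM in WT cells. Its log2 ratio was -0.46 with a standard error of 0.21, the error implied by the authors' test statistic (95% interval -0.88 to -0.05). The p in the authors' deposited table was 0.0272 and q was 0.689, so this gene did not pass the Cuffdiff test over all genes. As many as 424 tested genes (3.95%) had a p that small or smaller. With its error, Cdkn1a would have needed a 1.69-fold difference to reach the largest p that was called. The gene (ENSMUSG00000023067) is listed on chromosome 17 at positions 29227924 to 29237667, 42.0 Mb from Tgif1 on the same chromosome. Its upstream window holds exact matches to the p53 decamer at 73 to 64 and at 51 to 42 bases before the start. The nearer is shown above, and the TGIF core begins on the base after it, 41 bases before that start. Near matches to the decamer, also among the bases that hold this TGIF core, were not searched for. The matches are therefore not read as 1 paired element.

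Markers of other blood cells differed between the same groups, and their part in the values of the members was not tested. Of 8 tested B lineage markers 7 were lower in Tgif1-/- cells, 6 of them at an unadjusted p under 0.05 and 4 called, with a median log2 ratio of -1.44 and a summed level of 58.2 FPKM in Tgif1-/- cells and 120 FPKM in WT cells. The 7 tested markers of mast cells and basophils all stood higher, 6 at an unadjusted p under 0.05 and 4 called, with a median log2 ratio of 1.13 and sums over 8 markers of 456 and 211 FPKM in Tgif1-/- and WT cells. No B lineage or mast cell marker was at 0 in both groups. Of 10 tested markers of long-term stem cells 4 were higher, 6 were lower and none was called, with a median log2 ratio of -0.01 and sums over 14 markers of 983 and 1001 FPKM in Tgif1-/- and WT cells. Of those 10, none had an unadjusted p under 0.05. Of 3 tested lymphoid-primed progenitor markers 1 was higher and 2, Dntt and Il7r, were lower, each with an unadjusted p under 0.05 but not called, with a median log2 ratio of -0.53 and sums over 8 markers of 1204 and 1351 FPKM in Tgif1-/- and WT cells. All 6 tested neutrophil markers stood lower, none of them called and 4 with an unadjusted p under 0.05, with a median log2 ratio of -0.90. Their sums over 9 markers were 3766 and 4151 FPKM in Tgif1-/- and WT cells, of which Mpo, whose test failed, made 3055 and 3289 FPKM. Megakaryocyte markers (7 tested) stood higher in 6 cases, 3 of them at an unadjusted p under 0.05 and 1 called, and 1 was lower at that level. Their median log2 ratio was 0.58 and their sums were 213 and 136 FPKM in Tgif1-/- and WT cells. Of 8 tested erythroid markers 6 were higher, 1 at an unadjusted p under 0.05 and none called, with a median of 0.30 and sums of 734 and 598 FPKM in Tgif1-/- and WT cells.

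Cdkn1b (ENSMUSG00000003031, chromosome 6, positions 134870419 to 134875531 in the table), which encodes p27, an inhibitor that accumulates in resting cells, had 14.3 FPKM in Tgif1-/- cells and 12.5 FPKM in WT cells. Its log2 ratio was 0.19 ± 0.21 (implied standard error; 95% interval -0.21 to 0.60), and p was 0.347 in the authors' deposited table. Cdkn1b thus stood on the other side of WT from Cdkn1a. Their intervals overlap, but overlap does not measure the difference between the ratios, which was not tested. Summed over the CIP/KIP genes the level was 50.6 FPKM in Tgif1-/- cells, against 61.9 FPKM in WT cells. Cdkn1a made up 67.7% of that sum in Tgif1-/- cells and 76.4% in WT cells, and Cdkn1b 28.3% and 20.2%. The ratio of Cdkn1a to Cdkn1b was 2.39 in Tgif1-/- cells and 3.77 in WT cells. These shares and ratios are of group values and carry no error.

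Cdkn1c (ENSMUSG00000037664, chromosome 7, positions 150644255 to 150646955 in the table), which encodes p57, an imprinted inhibitor expressed from the maternal allele, had 1.99 FPKM in Tgif1-/- cells and 2.11 FPKM in WT cells. Its log2 ratio was -0.09 ± 0.46 (implied standard error), the widest of the tested members (95% interval -0.98 to 0.81). With that error a 3.13-fold difference would have been needed for a call, and the interval ran from a fold of 0.506 to one of 1.75. Among its fixed imprinted neighbours on chromosome 7, 6 were tested and none was called, with 3 higher and 3 lower. Phlda2 had 2.63 FPKM in Tgif1-/- cells and 2.98 FPKM in WT cells, and Slc22a18, a transporter gene, had 18.8 and 24.4 FPKM (p = 0.344 by Cuffdiff in the authors' deposited table). Tssc4 had 10.4 and 8.69 FPKM in Tgif1-/- and WT cells (p = 0.0786 by Cuffdiff in the authors' deposited table).

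Of the INK4 genes, Cdkn2c and Cdkn2d carried nearly all of the summed level in both groups. Cdkn2c (ENSMUSG00000028551, chromosome 4, positions 109333481 to 109339794 in the table), which encodes p18, had 17.3 FPKM in Tgif1-/- cells and 14.9 FPKM in WT cells, a log2 ratio of 0.21 ± 0.22 (implied standard error; 95% interval -0.23 to 0.65), and p was 0.347 in the authors' deposited table. Cdkn2d (ENSMUSG00000066860, chromosome 9, positions 21092907 to 21095653 in the table), which encodes the INK4 protein p19, had 7.86 FPKM in Tgif1-/- cells and 6.63 FPKM in WT cells. Its log2 ratio was 0.24 ± 0.37 (implied standard error; 95% interval -0.47 to 0.96), and p was 0.506 in the authors' deposited table. Both intervals cover 0, and as folds they ran from 0.854 to 1.57 for Cdkn2c and from 0.719 to 1.95 for Cdkn2d. Cdkn2c made up 68.5% of the INK4 sum in Tgif1-/- cells and 68.8% in WT cells, and Cdkn2d 31.2% and 30.6%.

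Cdkn2a and Cdkn2b lie side by side on chromosome 4, and both were near the bottom of the table. Cdkn2a (ENSMUSG00000044303, chromosome 4, positions 88920377 to 88940557 in the table) was at 0.0577 FPKM in Tgif1-/- cells and listed at 0 in WT cells. Cdkn2b (ENSMUSG00000073802, chromosome 4, positions 88952198 to 88956941 in the table), which encodes p15, a textbook target of TGF-beta signalling, was at 0.0284 FPKM in Tgif1-/- cells and 0.148 FPKM in WT cells. The deposited status marks both as having too few reads to test, so neither difference has a test. Cdkn2a encodes p16 and, from another first exon and reading frame, p19ARF. The gene value does not separate these transcripts, whose start sites are both in the RefSeq windows, and the E2F match shown above lies 99 to 92 bases before the upstream start. Among 10 tested Polycomb genes, whose products keep this locus silent, none was called, with 5 higher, 5 lower and a median log2 ratio of -0.01. Phc1 had 38.2 FPKM in Tgif1-/- cells and 44.3 FPKM in WT cells (p = 0.0892 by Cuffdiff in the authors' deposited table), and Cbx2 had 9.15 and 11.7 FPKM. The test of Bmi1, the best known repressor of Cdkn2a in blood stem cells, failed, with 67.4 FPKM in Tgif1-/- cells and 65.9 FPKM in WT cells.

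**Figure D2:**
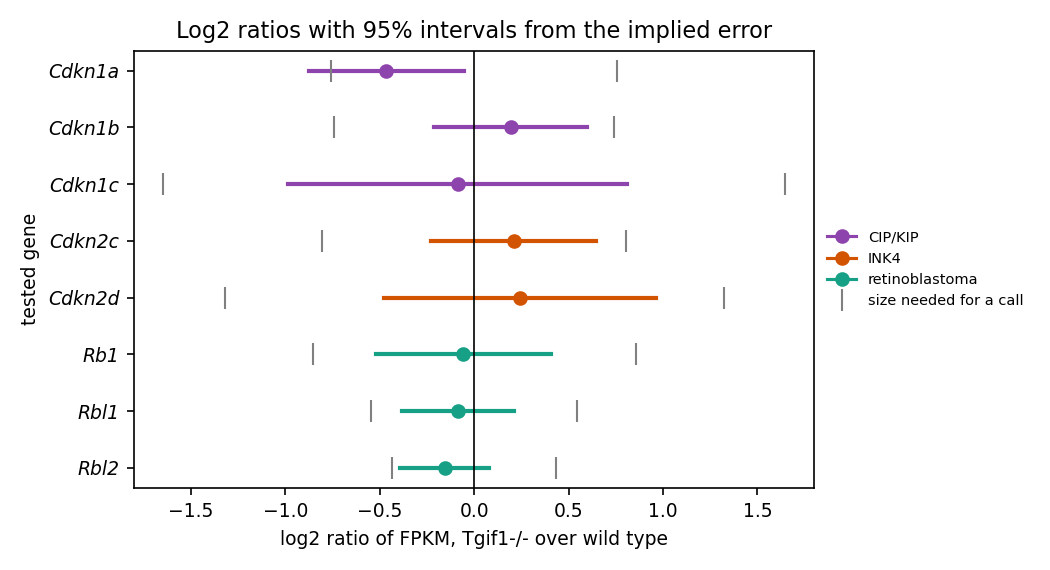
Log2 ratio of FPKM, Tgif1-/- over WT, for the 8 tested genes (points) with 95% intervals from the error implied by the deposited test statistic (lines). Grey ticks mark the ratio each gene would have needed to be called. The interval of Cdkn1a, -0.88 to -0.05, is the 1 that does not cover 0, and its point does not reach the tick.

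The retinoblastoma genes stood a little below WT in Tgif1-/- cells, and all 3 intervals cover 0. Rb1 (ENSMUSG00000022105, chromosome 14, positions 73522844 to 73725629 in the table), the founding tumour suppressor, had 53.7 FPKM in Tgif1-/- cells and 55.8 FPKM in WT cells, a log2 ratio of -0.06 ± 0.24 (implied standard error; 95% interval -0.52 to 0.41). Rbl1 (ENSMUSG00000027641, chromosome 2, positions 156971629 to 157030270 in the table), which encodes p107 and is high in cycling cells, had 31.0 FPKM in Tgif1-/- cells and 32.8 FPKM in WT cells. Its log2 ratio was -0.08 ± 0.15 (implied standard error; 95% interval -0.38 to 0.21), and its E2F match lies 18 to 11 bases before the start. Rbl2 (ENSMUSG00000031666, chromosome 8, positions 93593956 to 93658364 in the table), which encodes p130, the family member of resting cells and of the DREAM repressor complex, gave a log2 ratio of -0.16 ± 0.12 (implied standard error; 95% interval -0.39 to 0.08), and p was 0.193 in the authors' deposited table. It had the smallest implied standard error of the tested members, below the median of 0.19 for genes at its level. With that error a 1.35-fold difference would have been called. The ratio of Rbl2 to Rbl1 was 2.24 in Tgif1-/- cells and 2.36 in WT cells, and the family sum was 154 and 166 FPKM.

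Listed positions bear on 2 of these values. Rb1 shares its listed position with Rcbtb2 and with Lpar6, a receptor gene that lies inside an Rb1 intron, and Rbl2 shares its position with Aktip, so their reads may have been assigned together. The log2 ratios of these neighbours, with implied standard errors, were -0.07 ± 0.20 for Rcbtb2, -0.11 ± 0.26 for Lpar6 and -0.16 ± 0.85 for Aktip. None of them was called, and whether they follow their partners was not tested. Positions are those of the table, whose build no source used here names. None of the 10 members had the start and end that RefSeq gives on GRCm38.p6.

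The errors of the members were in the range of genes at like expression. For Cdkn1a, 1660 other tested genes lay within 1.5-fold of its mean FPKM, with a median implied standard error of 0.20 and an interval from the 10th to the 90th percentile of 0.12 to 0.27. The Rb1 error of 0.24 was above the median of 0.19 at its level, and that of Rbl2 was below the median of 0.19. All 8 lay between the 10th and 90th percentiles of their own level.

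**Figure D3:**
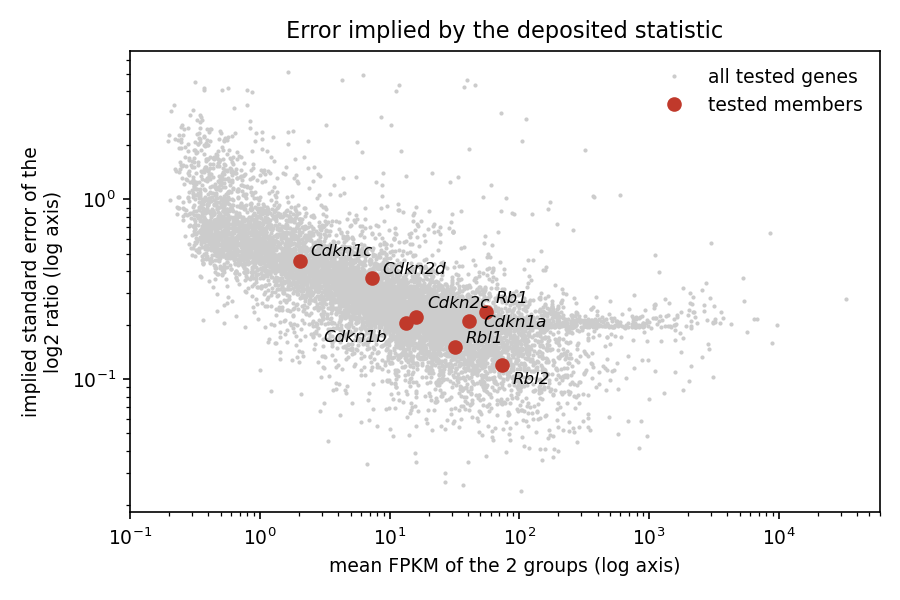
Implied standard error of the log2 ratio against the mean FPKM of the 2 groups (both log axes) for all tested genes above 0 in both groups (grey) and the 8 tested members (red). Cdkn1c, with the lowest mean FPKM of the 8, has an error of 0.46, and Rbl2, with the highest, an error of 0.12.

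The other genes of this pathway were described through 10 fixed lists, which hold 137 genes of the table besides the members. Of these, 99 were tested and none was called by Cuffdiff, with 48 higher, 51 lower and a median log2 ratio of -0.01. At an unadjusted p under 0.05 there were 3, or 3.03%, against 5.41% of all tested genes. The tests of 34 others failed, among them Cdk4, Cdk2, Ccna2, E2f1 and Trp53, so these could not be called. The log2 ratios of those 34 ran from -0.30 (Cbx7) to 0.28 (Cdc20).

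Of the list of cyclins and CDKs that the inhibitors bind, which also holds Cdc25a and the CDK assembly factor Mnat1, 11 genes were tested, with 4 higher, 7 lower and a median log2 ratio of -0.09. Cdc25a, the phosphatase that activates Cdk2, had 15.1 FPKM in Tgif1-/- cells and 16.8 FPKM in WT cells (log2 ratio -0.16, implied standard error 0.05; p = 0.0041 and q = 0.28 by Cuffdiff in the authors' deposited table). Its p rests on an unusually small error. Among genes within 1.5-fold of the mean FPKM of Cdkn2c (16.1), a like level, the 10th percentile of the error was 0.15. Ccnd2, a D-type cyclin, had 73.4 FPKM in Tgif1-/- cells and 85.9 FPKM in WT cells, and its p was 0.265 in the authors' deposited table. Cdk4 and Cdk6, the kinases that INK4 proteins bind, together stood at 1195 FPKM in Tgif1-/- cells and 1189 FPKM in WT cells. That is 47.4 times the INK4 sum in Tgif1-/- cells and 54.8 times in WT cells at the RNA level. Most of it came from Cdk4, whose test failed, at 812 FPKM in Tgif1-/- cells and 838 FPKM in WT cells. These ratios are of group values and carry no error, so their difference was not tested.

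Factors that work with the retinoblastoma proteins gave no call either. Of 6 tested E2F and DP genes 1 was higher and 5 were lower, with a median log2 ratio of -0.08. E2f4, the repressor E2F that pairs with p130, had 38.0 FPKM in Tgif1-/- cells and 47.5 FPKM in WT cells (p = 0.133 by Cuffdiff in the authors' deposited table), and E2f5 had 5.07 and 5.52 FPKM. Of 8 tested genes of the list of the MuvB core, A-Myb, B-Myb, FoxM1 and Dyrk1a, 6 were higher and 2 were lower, with a median of 0.04. Lin54, the DNA-binding subunit, had 28.6 FPKM in Tgif1-/- cells and 24.7 FPKM in WT cells, and Mybl1 had 5.49 and 7.36 FPKM.

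Tested genes that E2F and DREAM control were near a ratio of 1 in both lists. Of 12 tested E2F targets of G1/S, 5 were higher and 7 were lower, with log2 ratios from -0.16 to 0.10 and a median of -0.01. Rrm2, a ribonucleotide reductase subunit, had 93.7 FPKM in Tgif1-/- cells and 104 FPKM in WT cells, and Cdt1, which licenses replication origins, had 29.8 and 33.4 FPKM. Of 13 tested G2/M genes, 7 were higher and 6 were lower, with log2 ratios from -0.19 to 0.13 and a median of 0.02. Aurka, a mitotic kinase, had 23.1 FPKM in Tgif1-/- cells and 25.7 FPKM in WT cells, and Cdk1, the mitotic kinase that cyclin B drives, had 172 and 157 FPKM. In both lists no tested gene had an unadjusted p under 0.05. The tests of 6 genes of the G1/S list and 4 of the G2/M list failed. Log2 ratios of the group values of these untested genes ran from -0.17 (Mcm7) to 0.09 (Orc1) in the G1/S list. In the G2/M list they ran from -0.06 (Aurkb) to 0.28 (Cdc20).

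Upstream of the inhibitors, 10 transcription factors were tested, with 4 higher, 6 lower and none called. Egr1, an immediate early factor, had 10.9 FPKM in Tgif1-/- cells and 14.5 FPKM in WT cells (log2 ratio -0.40, implied standard error 0.16; p = 0.0117 and q = 0.483 by Cuffdiff in the authors' deposited table). Foxo3, which drives Cdkn1b in quiescent cells, had 79.3 FPKM in Tgif1-/- cells and 84.1 FPKM in WT cells. The test of Trp53 failed, with 312 FPKM in Tgif1-/- cells and 342 FPKM in WT cells. Of 8 tested genes that degrade the inhibitors or cyclin E, 5 were higher and 3 were lower, with a median of 0.01. Rbx1, a RING subunit of those ligases, had 39.6 FPKM in Tgif1-/- cells and 36.5 FPKM in WT cells, and Cul4a had 81.1 and 87.6 FPKM.

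Genes that p53 induces along with Cdkn1a stood on both sides of WT. Of 17 tested, 9 were higher and 8 were lower, with a median log2 ratio of 0.01. How that median compares with the ratio of Cdkn1a was not tested. Mdm2, the p53 ubiquitin ligase, had 58.8 FPKM in Tgif1-/- cells and 59.4 FPKM in WT cells, and Ccng1, another p53 target, had 58.9 and 57.5 FPKM; both were named after their values were seen. Fas, a death receptor, had 2.07 FPKM in Tgif1-/- cells, against 0.338 FPKM in WT cells, a log2 ratio of 2.61 ± 0.77. (implied standard error) The authors' deposited table gives a p of 0.000659 and a q of 0.0794, so it did not pass. Perp, a membrane protein induced in p53-driven death, had 3.27 FPKM in Tgif1-/- cells and 2.14 FPKM in WT cells (p = 0.154 by Cuffdiff in the authors' deposited table).

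**Figure D4:**
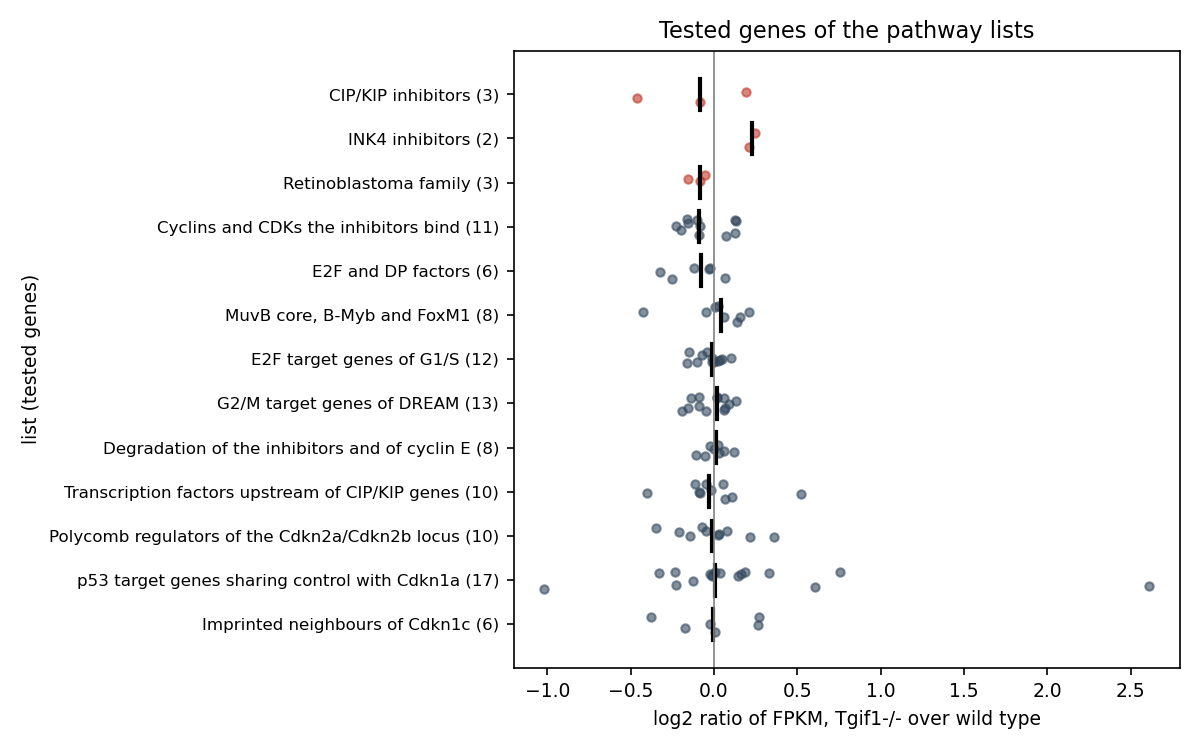
Log2 ratio of FPKM, Tgif1-/- over WT, for each tested gene of the 3 member families (red) and the 10 pathway lists (dark), with the list median as a black bar and the number tested in brackets. Medians lie between -0.09 and 0.23, and the point farthest right is Fas at 2.61.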

How the data were processed

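RNA of LSK cells, about 200 ng per the labels' protocols, was sequenced in 6 samples. Per the submitters' processing notes, TopHat and Cuffdiff were used, without versions, and hg19 is named although the identifiers are mouse identifiers. The authors deposited 1 FPKM value per group, and per the file headers a log2 fold change (WT on top, turned round here), a test statistic, a p-value and a q-value. Depth per sample and the counting of strand are unknown. A gene was tested where the deposited status says so (10730 genes, 3143 failed, 8455 with too few reads, and the few remaining lines under another status). It was called at a deposited q at or under 0.05. For 10683 of 10683 tested genes above 0 in both groups the deposited p-value matched a two-sided normal test of the statistic within 0.001. The implied standard error is the log2 ratio over that statistic, and comes from the authors' model, not from samples seen here. The members and lists were chosen with earlier results of these data known. From each list the text names up to 3 called genes or, with fewer than 2 called, those of smallest p that reach 1 FPKM in either group, and any other gene with its values was named after these were seen. Gfi1, Kmt2a, H19 and Kcnq1ot1 of the lists were not analysed here. The p53 decamer was added to the motif search after the windows were seen. Alternatives were q thresholds of 0.01 and 0.1, a minimum of 1 FPKM in either group, pseudocounts of 0.1 and 1, subtraction of the median over tested genes, and an error floor, the median error within each of 20 bins of expression. Calculations used Python 3.11.15, pandas 2.3.3, numpy 2.4.6, scipy 1.17.1 and matplotlib 3.10.9, and the adjustment was tested on simulated data.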

Additional observations from a re-analysis of the deposited data

How the results depend on the processing

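All 32 alternative log2 ratios of the 8 tested members kept their direction. The 16 of them that carry a test (centring and the error floor) gave no call, while the pseudocount ratios carry none. No member was called at q thresholds of 0.01 or 0.1, over genes reaching 1 FPKM in either group, or with the error floor. The lowest adjusted p of a member was 0.914 after centring and 1.00 with the error floor. The median log2 ratio of the tested members ran from -0.07 to -0.04 over its alternatives. It was -0.08 over all members above 0 in both groups, which adds the untested Cdkn2b. Over all tested genes, 39 were called at a q at or under 0.01 and 22 with the error floor, against 71. With the error floor the 1 megakaryocyte marker was no longer called, while B lineage and mast cell and basophil markers had 4 calls each. Of the pathway genes besides the members, 1 was called at a q at or under 0.1, Fas. No paired analysis was possible because the 2 groups share no replicate numbers and the table holds 1 value per group. For the same reason no replicate could be left out, and the depth behind each value is unknown.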
